A study of Mus musculus with 6 samples.

Results

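The 9 genes described here encode transcription factors that give hepatocytes their identity: Hnf4a, Foxa1, Foxa2, Foxa3, Cebpa, Cebpb, Nr5a2, Onecut1 and Prox1. They were chosen by gene symbol from the 45777 genes of the deposited table, and all 9 were among the 18636 genes that were tested. The samples are liver RNA of 3 WT mice, which are Pak4 flox/flox littermates without Cre, and of 3 LKO mice, which carry Alb-Cre with Pak4 flox/flox, with 1 library for each. All 6 were C57BL/6 males aged 8 weeks that had been fasted for 24 h, so no fed liver enters any comparison. Cre is driven here by the albumin promoter, so the floxed part of Pak4, a serine/threonine kinase gene, is lost in hepatocytes and kept in the other cells of the liver. The question was how liver gene expression during fasting differs when hepatocytes lack PAK4.

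Total counts were 45934632 to 55205564 in WT mice against 53936281 to 59576437 in LKO mice. The scaling factors by trimmed mean of M-values (TMM), which set the typical gene equal between libraries, were 1.28 to 1.43 in WT against 0.639 to 0.816 in LKO mice. Values below are CPM, read counts divided by the TMM-scaled size of the library, unless TPM, which are also divided by transcript length, are named. Read counts of Pak4 over the whole gene were 268, 210 and 271 in WT mice 1, 2 and 3 against 85, 52 and 149 in LKO mice 1, 2 and 3, a sum that does not separate the floxed part from the rest. In CPM these were 3.59, 3.21 and 4.097 against 1.93, 1.49 and 3.22, so LKO mouse 3 lay inside the range of the WT mice and Pak4 does not set that library apart from them. Its log2 fold change after TMM was -0.71 ± 0.31 (SE, n = 3 per genotype), which did not pass the threshold (edgeR quasi-likelihood test, adjusted p = 0.10), and it was -1.08 without LKO mouse 3 (edgeR, adjusted p = 0.015). Pak4 was called lower on total counts (-1.54, edgeR adjusted p = 0.0056) and on log2(TPM + 1) (-1.19, limma adjusted p = 0.00063). Under these scalings 51.4% and 71.5% of all genes were called lower, and the medians of all genes were -0.90 and -0.79. The libraries of the LKO mice carried hepatocyte RNA by the marker list, since all 10 hepatocyte markers were measured and their summed CPM was 123400 to 142800 in LKO and 51580 to 55650 in WT mice. Alb made up the largest part of that sum. Of the 10 markers 6 were called higher and 3 (Ttr, Trf and Serpinc1) lower, at log2 fold changes of -1.35, -1.12 and -0.72. The shares of all genes called higher and lower were 19.6% and 20.5%.

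Hepatocytes hold their state through a small network of DNA-binding proteins that switch on their own genes and those of each other. HNF4A is a nuclear receptor that binds a large share of liver genes and is needed for the adult hepatocyte programme. FOXA1, FOXA2 and FOXA3 are forkhead pioneer factors that open compacted chromatin, and FOXA2 is also tied to lipid oxidation in fasting. C/EBPα and C/EBPβ are leucine zipper factors, of which C/EBPα is linked to the quiescent, metabolic hepatocyte and C/EBPβ to fasting, the acute phase and regeneration. NR5A2 (LRH-1) governs bile acid genes, ONECUT1 (HNF6) acts in liver and bile duct development and in adult glucose and lipid metabolism, and PROX1 is set on early in the liver bud and stays on in hepatocytes.

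Promoters of the factors are shown for the 4 whose levels passed the test between genotypes and that have a single start site in RefSeq. Each line gives the 250 bases upstream of that site from RefSeq (GRCm38.p6), 5′ to 3′ on the strand of the gene, and capitals mark a match to a searched motif.
Onecut1 (chr9:74861671-74861920, plus strand): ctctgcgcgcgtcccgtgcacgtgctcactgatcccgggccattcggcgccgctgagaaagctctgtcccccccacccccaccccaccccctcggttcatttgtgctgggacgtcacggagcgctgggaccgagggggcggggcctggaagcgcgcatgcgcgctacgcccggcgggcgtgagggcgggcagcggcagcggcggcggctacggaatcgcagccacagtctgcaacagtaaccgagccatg
Foxa1 (chr12:57546112-57546361, minus strand): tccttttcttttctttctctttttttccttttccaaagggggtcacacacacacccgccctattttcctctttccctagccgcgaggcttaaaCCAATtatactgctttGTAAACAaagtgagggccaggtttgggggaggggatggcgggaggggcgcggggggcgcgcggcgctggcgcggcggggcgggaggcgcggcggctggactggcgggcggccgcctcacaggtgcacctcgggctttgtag
Cebpa (chr7:35119043-35119292, plus strand): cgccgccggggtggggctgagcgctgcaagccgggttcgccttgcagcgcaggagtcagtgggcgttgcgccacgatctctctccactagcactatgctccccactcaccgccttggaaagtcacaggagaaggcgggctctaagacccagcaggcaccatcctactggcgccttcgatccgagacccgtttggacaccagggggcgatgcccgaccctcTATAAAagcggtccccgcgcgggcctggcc
Cebpb (chr2:167688665-167688914, plus strand): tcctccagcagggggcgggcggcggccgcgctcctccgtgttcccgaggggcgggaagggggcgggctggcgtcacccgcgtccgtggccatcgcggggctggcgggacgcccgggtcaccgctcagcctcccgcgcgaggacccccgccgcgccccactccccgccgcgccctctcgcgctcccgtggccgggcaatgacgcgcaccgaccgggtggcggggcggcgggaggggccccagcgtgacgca
The search covered 7 motifs, namely CAAAGTCCA (HNF4), TGTTTAC (FOXA), TTGCNNAA (C/EBP), ATTGAT (HNF6), CAAGGTCA (LRH-1) and CCAAT on both strands and TATAAA on the gene's strand, and no match here overlapped another. The Foxa1 promoter held a FOXA match that began 141 bases before the start site and a CCAAT match that began 157 bases before it. A FOXA match occurs in 3.17% and a CCAAT match in 33.9% of the 32851 promoters of this length. In the Cebpa promoter the sole match was TATAAA, which began 30 bases before the start site and occurs in 7.59% of promoters. Neither the Onecut1 nor the Cebpb window held any of these letters, and both were rich in G and C (71.6% and 81.6%, against a median of 52.4% over all promoters). Among the other members, HNF6 matches began 59 bases before a start site of Hnf4a and 213 bases before one of Foxa2, and a C/EBP match began 243 bases before one of Nr5a2. The remaining matches of Hnf4a, Foxa2, Foxa3 and Nr5a2 were to CCAAT and, in Foxa3, TATAAA, and the Prox1 windows held none. An HNF6 match occurs in 6.72% and a C/EBP match in 9.56% of promoters.

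After TMM, RNA of 3 of the 9 factors fell in LKO livers and RNA of 2 rose. Onecut1, Foxa1 and Foxa2 fell, Cebpb and Cebpa rose, and Hnf4a, Foxa3, Nr5a2 and Prox1 did not pass the threshold (edgeR quasi-likelihood test on counts, adjusted p under 0.05). Over all 18636 genes tested, 20.5% were called lower and 19.6% higher, so the members' shares (33.3% and 22.2%) lay near those of any genes. The 5 called factors were also those whose CPM did not overlap between genotypes, against 54.0% of all genes. Bulk liver RNA cannot tell fewer cells that express a gene from less of its RNA per cell. The median log2 fold change of the 9 factors was 0.11, beside -0.04 over all genes.

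**Figure D1:**
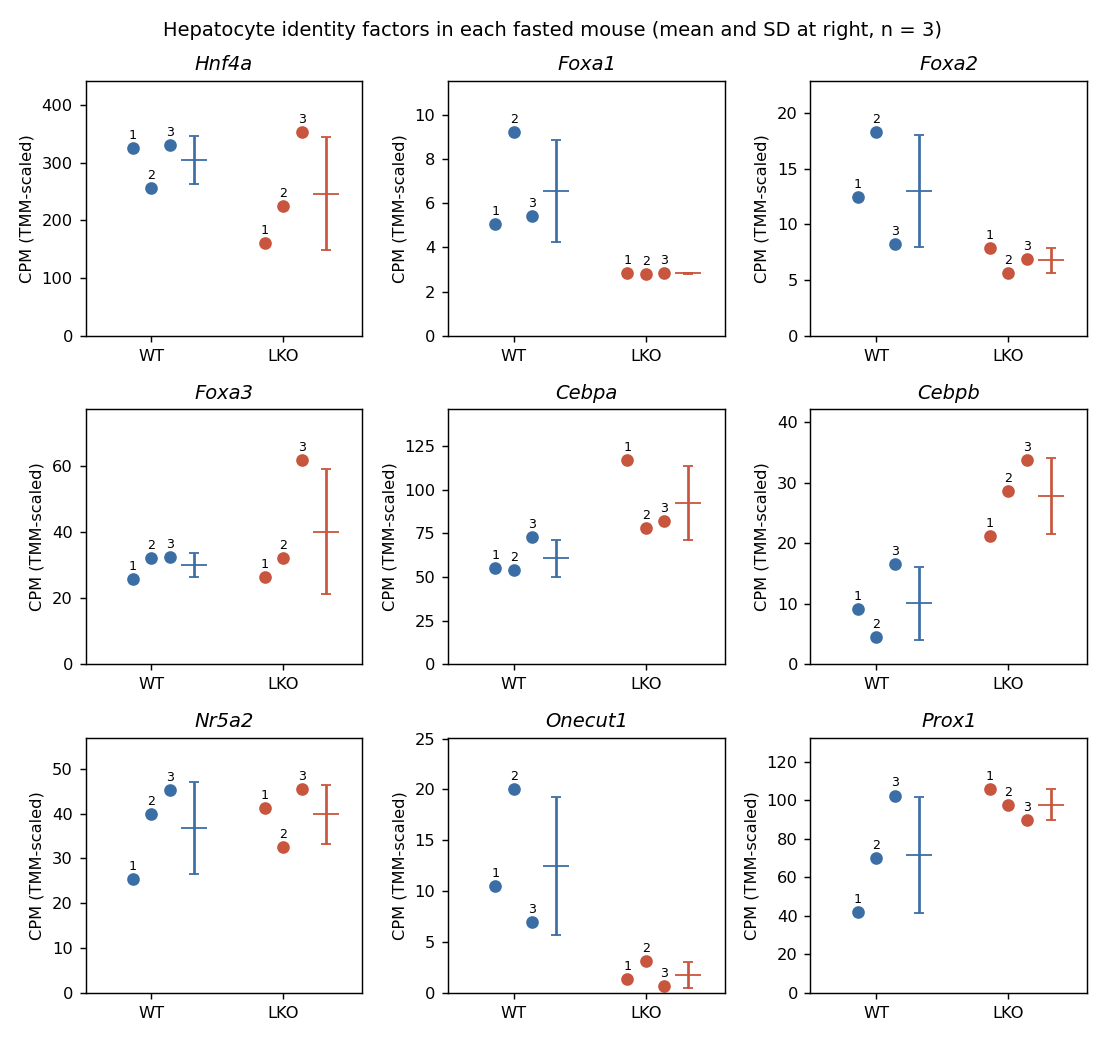
CPM of each factor in each mouse (points, numbered by mouse) for WT (blue) and LKO (red) livers, with the mean and SD of 3 mice at the right of each group and a linear axis from 0. Points of Onecut1, Foxa1 and Foxa2 lie lower in all LKO mice than in all WT mice and those of Cebpa and Cebpb lie higher, while the other 4 factors overlap.

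These directions depend in part on the scaling. Scaling to total counts alone shifted the median of all genes to -0.90, and on log2(TPM + 1) it was -0.79. Onecut1, Foxa1 and Foxa2 were lower under every scaling, with log2 fold changes of -3.82, -2.09 and -1.80 on total counts (edgeR, adjusted p = 0.00069, 0.00071 and 0.0026). Cebpa turned to -0.23 on total counts (edgeR, adjusted p = 0.44) and to -0.92 on log2(TPM + 1) (limma, adjusted p = 0.012). Hnf4a, not called after TMM, was called lower on total counts, at -1.16 (edgeR, adjusted p = 0.0072). Against the shifted median of total counts, the values read much as they did after TMM: -0.26 for Hnf4a, 0.67 for Cebpa, 1.52 for Cebpb, -1.19 for Foxa1 and -2.92 for Onecut1. That likeness was fixed in advance, since a change of scaling shifts all genes by nearly the same amount, so it does not test the directions. On log2(TPM + 1), against the median there, the values read -1.10 for Hnf4a, -0.13 for Cebpa, 0.86 for Cebpb, -0.85 for Foxa1 and -2.31 for Onecut1. On total counts 51.4% of all genes were called lower and 6.26% higher.

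**Figure D2:**
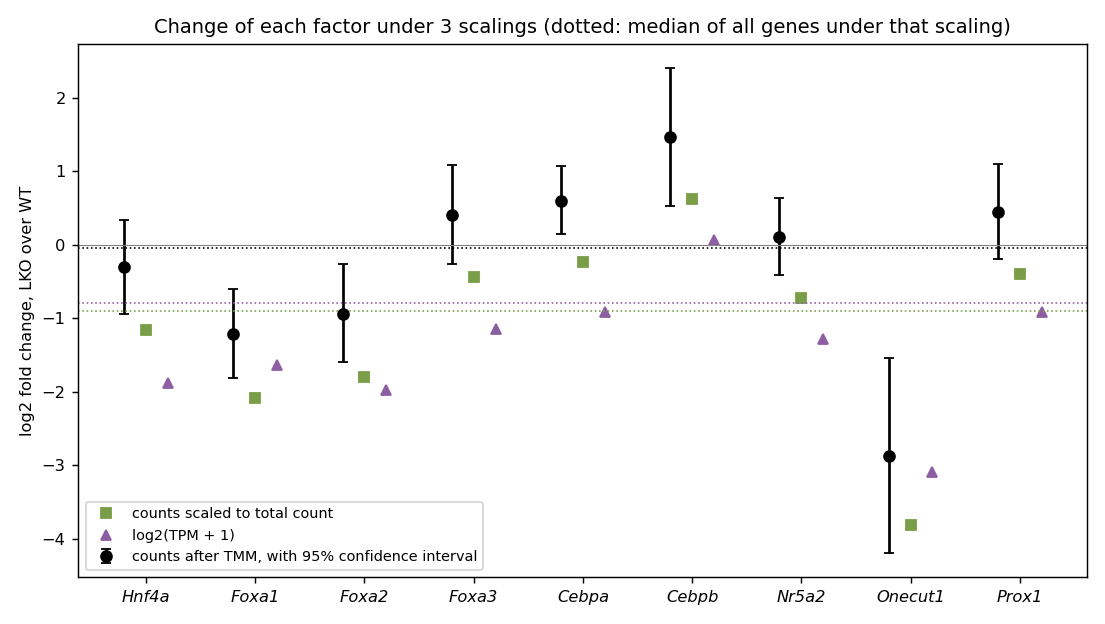
Log2 fold change of each factor (LKO over WT) on counts after TMM with its 95% confidence interval (black), on counts scaled to the total (green squares) and on log2(TPM + 1) (purple triangles). Dotted lines are the medians of all genes under each scaling (-0.04, -0.90 and -0.79), and Onecut1, Foxa1 and Foxa2 lie below 0 under all 3.

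Onecut1 had the largest change of the 9. This gene (Entrez gene 15379, chromosome 9, 74861921 to 74889648 in GRCm38.p6) had CPM of 10.5, 20.1 and 6.94 in WT mice 1, 2 and 3 against 1.36, 3.18 and 0.670 in LKO mice 1, 2 and 3. The lowest WT mouse thus stood above the highest LKO mouse, although WT mice differed 2.89-fold among themselves and LKO mice 4.75-fold. The log2 fold change was -2.87 ± 0.58 (SE, n = 3 per genotype, 95% confidence interval -4.19 to -1.54, edgeR adjusted p = 0.0054), a 7.30-fold lower level, and only 1.4% of the genes tested had a lower value. It was called under all 20 alternatives, and the change was -3.62 without LKO mouse 2, the highest of its group. The read counts behind the LKO values were 60, 111 and 31. Onecut2, a close relative that shares the cut and homeobox domains, did not pass (log2 fold change -0.21 ± 0.16, edgeR adjusted p = 0.32), with 96.6, 124 and 101 CPM in WT against 92.2, 82.8 and 103 CPM in LKO mice. Onecut2 was called lower on total counts (-1.07, edgeR adjusted p = 0.0027) and on log2(TPM + 1) (-1.57, limma adjusted p = 0.00064), as were 51.4% and 71.5% of all genes. Onecut3 had too few reads to be tested.

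Of the FOXA genes, Foxa1 and Foxa2 fell and Foxa3 did not pass the test. Foxa1 (Entrez gene 15375, chromosome 12, 57540628 to 57548029) was at 5.06, 9.22 and 5.41 CPM in WT mice against 2.86, 2.81 and 2.83 CPM in LKO mice. The LKO mice agreed within 1.02-fold in CPM while WT mouse 2 stood well above the other 2 WT mice. The LKO values rest on 126, 98 and 131 reads, and in TPM the same mice were less alike (0.6285, 0.4642 and 0.6752). The log2 fold change of Foxa1 was -1.21 ± 0.27 (95% confidence interval -1.82 to -0.60, edgeR adjusted p = 0.0078, called under all 20 alternatives). Foxa2 (Entrez gene 15376, chromosome 2, 148042877 to 148046969) was at 12.5, 18.3 and 8.23 CPM in WT mice against 7.86, 5.62 and 6.88 CPM in LKO mice. WT mouse 3 and LKO mouse 1 nearly met, and the log2 fold change was -0.94 ± 0.29 (95% confidence interval -1.60 to -0.27, edgeR adjusted p = 0.032). Leaving out WT mouse 1, WT mouse 2, LKO mouse 2 or LKO mouse 3 ended the call of Foxa2 (edgeR adjusted p = 0.069, 0.11, 0.11 and 0.064). Foxa3 (Entrez gene 15377, chromosome 7, 19013283 to 19023539) was at 25.9, 32.2 and 32.4 CPM in WT mice against 26.5, 32.2 and 61.7 CPM in LKO mice. Its mean was higher in LKO through mouse 3 alone, with a log2 fold change of 0.41 ± 0.30 (95% confidence interval -0.26 to 1.09, edgeR adjusted p = 0.30) that became -0.04 without that mouse.

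Cebpb and Cebpa rose after TMM, although the direction of Cebpa flipped on total counts and on TPM. Cebpb (Entrez gene 12608, chromosome 2, 167688915 to 167690432) was at 9.12, 4.59 and 16.6 CPM in WT mice against 21.1, 28.7 and 33.7 CPM in LKO mice. Every LKO mouse exceeded every WT mouse, the log2 fold change was 1.46 ± 0.41 (95% confidence interval 0.52 to 2.40, edgeR adjusted p = 0.022), and it stayed above 0 on total counts (0.62, edgeR adjusted p = 0.19) and log2(TPM + 1) (0.07, limma adjusted p = 0.89) without being called. Cebpa (Entrez gene 12606, chromosome 7, 35119293 to 35121928) was at 55.2, 54.0 and 73.0 CPM in WT mice against 116.7, 77.9 and 82.2 CPM in LKO mice. LKO mouse 1 was highest, and WT mouse 3 came within a few CPM of LKO mouse 2. The log2 fold change was 0.60 ± 0.20 (95% confidence interval 0.14 to 1.07, edgeR adjusted p = 0.045). The call of Cebpa ended without WT mouse 1, WT mouse 2 or LKO mouse 1 (edgeR adjusted p = 0.15, 0.16 and 0.14), and that of Cebpb without WT mouse 1, LKO mouse 2 or LKO mouse 3 (0.076, 0.068 and 0.057).

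The other C/EBP genes spread in both directions. Cebpd, an acute phase member of the family, rose most, from 3.22, 3.09 and 2.80 CPM in WT mice to 21.8, 47.4 and 39.4 CPM in LKO mice, with a log2 fold change of 3.58 ± 0.29 (edgeR adjusted p = 0.00022). Cebpe, best known from granulocytes, fell from a mean of 1.61 to 0.524 CPM (log2 fold change -1.62 ± 0.31, edgeR adjusted p = 0.0042). Cebpg, which pairs with other family members, did not pass, at a mean of 62.7 CPM in WT against 55.7 CPM in LKO mice (log2 fold change -0.17 ± 0.20, edgeR adjusted p = 0.52). It was called lower without LKO mouse 3 (-0.42, edgeR adjusted p = 0.045) and on total counts (-1.03, edgeR adjusted p = 0.0062). The total counts scaling called 51.4% of all genes lower.

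**Figure D3:**
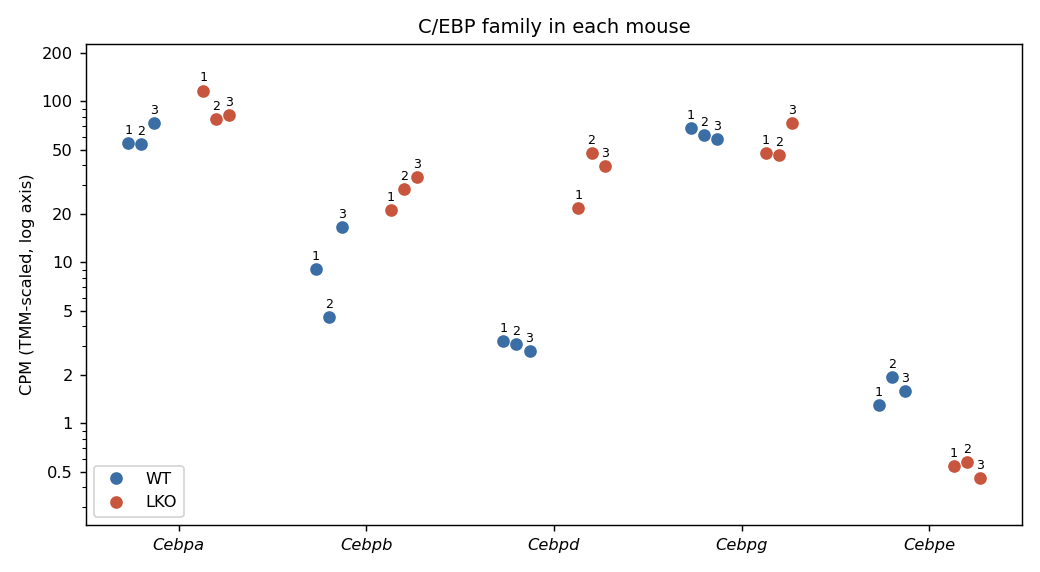
CPM of the 5 C/EBP genes in each mouse (points, numbered by mouse) on a log axis, WT in blue and LKO in red. Cebpd rises from about 3 CPM in all WT mice to between 21.8 and 47.4 CPM in LKO mice, next to the smaller shift of Cebpb and the overlap of Cebpg.

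Hnf4a was the most abundant of the 9 in every WT mouse and did not pass the test. It (Entrez gene 15378, chromosome 2, 163506811 to 163572907) was at 326, 256 and 331 CPM in WT mice against 162, 224 and 353 CPM in LKO mice. LKO mice 1 and 2 lay below all WT mice and LKO mouse 3 above them. The log2 fold change was -0.30 ± 0.28 (95% confidence interval -0.94 to 0.33, edgeR adjusted p = 0.42), and without LKO mouse 3 it was -0.66 and was called (edgeR adjusted p = 0.043). Hnf4g, the paralog of Hnf4a, had too few reads to be tested.

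Nr5a2 and Prox1 overlapped between genotypes. Nr5a2 (Entrez gene 26424, chromosome 1, 136842562 to 136960448) was at 25.4, 39.9 and 45.2 CPM in WT mice against 41.3, 32.6 and 45.5 CPM in LKO mice. Its log2 fold change of 0.11 ± 0.23 was the nearest to 0 among the 9 (95% confidence interval -0.41 to 0.64, edgeR adjusted p = 0.72), and became -0.09 without WT mouse 1 and -0.73 on total counts (edgeR adjusted p = 0.043). Prox1 (Entrez gene 19130, chromosome 1, 190118035 to 190170827) was at 42.3, 69.9 and 102.5 CPM in WT mice against 105.9, 97.7 and 89.6 CPM in LKO mice. WT mice spread over 2.43-fold and LKO mice over 1.18-fold, and the log2 fold change was 0.45 ± 0.28 (95% confidence interval -0.20 to 1.10, edgeR adjusted p = 0.24). Without WT mouse 3 it was 0.80 and was called higher (edgeR adjusted p = 0.042), whereas on total counts it was -0.40. Nr5a1 had too few reads to be tested. Prox2, the paralog of Prox1, was at a mean of 2.00 CPM in WT against 1.23 CPM in LKO mice (edgeR adjusted p = 0.24). It was called lower on total counts (-1.56, edgeR adjusted p = 0.018), where 51.4% of all genes were called lower.

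Levels can be compared between genes only per length, on the TPM scale. In WT livers the order by mean TPM was Hnf4a (136 ± 11.8, SD, n = 3), Cebpa (45.0 ± 5.40), Foxa3 (29.1 ± 4.13), Prox1 (17.6 ± 6.69), Nr5a2 (16.9 ± 5.04), Onecut1 (13.8 ± 8.31), Cebpb (12.7 ± 6.97), Foxa2 (12.2 ± 5.47) and Foxa1 (4.11 ± 1.70). Hnf4a, Cebpa, Foxa3 and Foxa1 each stood apart from their neighbours in every WT mouse, and the ranges of neighbours from Prox1 to Foxa2 overlapped. In LKO livers the order was Hnf4a (38.8 ± 19.6 TPM), Cebpa (24.1 ± 8.11), Foxa3 (13.7 ± 8.07), Cebpb (12.5 ± 3.82), Prox1 (8.51 ± 1.46), Nr5a2 (6.34 ± 2.01), Foxa2 (2.21 ± 0.672), Foxa1 (0.589 ± 0.111) and Onecut1 (0.587 ± 0.343). Onecut1 moved from the sixth place to the last, where its range overlapped that of Foxa1, and the ranges of Hnf4a, Cebpa and Foxa3 overlapped their neighbours. For 8 of the 9 factors, all but Cebpb, the LKO mice had lower TPM than any WT mouse, as they had for 74.9% of all genes tested. The 9 factors summed to 271, 291 and 301 TPM in WT mice against 99.9, 77.1 and 145 TPM in LKO mice.

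The make-up of the set, as each gene's share of that sum, is free of the scaling between libraries, and it was computed after the data had been seen. Hnf4a held 53.8%, 42.2% and 46.3% of the sum in WT mice against 27.1%, 36.4% and 42.3% in LKO mice, which overlapped by a margin of WT mouse 2 and LKO mouse 3. Cebpb held 4.33%, 2.17% and 6.68% in WT mice against 10.2%, 13.4% and 11.6% in LKO mice. Onecut1 held 4.17%, 7.94% and 2.33% in WT mice against 0.539%, 1.23% and 0.187% in LKO mice. Shares of Cebpb, Onecut1 and Foxa1 did not overlap between genotypes, and those of the other 6 did. In CPM, 54.0% of all genes did not overlap. Shares of a single sum also depend on each other, so this count is not read as a result about the factors. Cebpa in LKO mouse 1 held 32.4% and exceeded Hnf4a there, at 27.1%, which occurred in no other mouse.

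**Figure D4:**
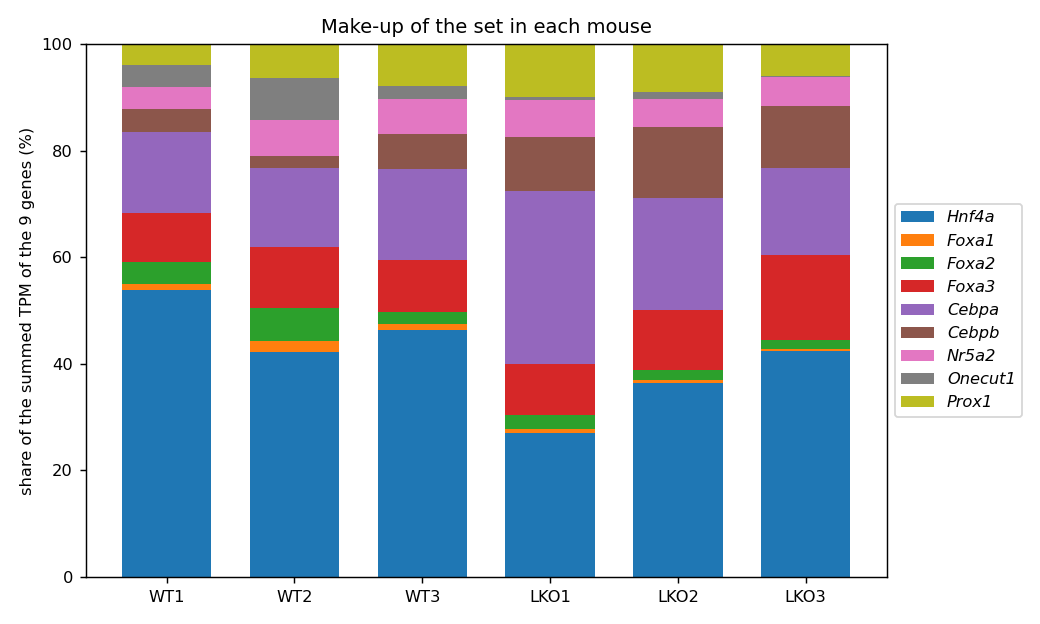
Share of each factor in the summed TPM of the 9 genes in each mouse, as stacked bars that each reach 100%. The brown Cebpb layer widens from 2.17% to 6.68% in WT mice to 10.2% to 13.4% in LKO mice, and the grey Onecut1 layer narrows to 1.23% or less.

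Ratios of read counts within a library, 11 in all, compared the factors gene by gene. They did not separate all of the same genes as the shares. The log2 ratio of Cebpb to Hnf4a was -5.16, -5.80 and -4.32 in WT mice against -2.93, -2.97 and -3.39 in LKO mice, a mean difference of 2.00. The ratio of Onecut1 to Hnf4a was -4.95, -3.67 and -5.57 in WT mice against -6.89, -6.14 and -9.04 in LKO mice, a mean difference of -2.62. Cebpa and Foxa3 also did not overlap relative to Hnf4a, with differences of 0.96 and 0.69. For Cebpa, LKO mouse 3 (-2.1) nearly met WT mouse 3 (-2.18), and LKO mouse 1 was highest at -0.47. All 4 of these ratios are to Hnf4a, so they are not independent of each other. For these 4 ratios the two-sided exact permutation test gave p = 0.1, the smallest that 3 against 3 mice allow, and 0.275 after Benjamini-Hochberg adjustment over the 11. Foxa1 and Foxa2 relative to Hnf4a differed by -0.79 and -0.51 and overlapped (exact permutation test, p = 0.3 and 0.5). Within families, the ratio of Cebpb to Cebpa differed by 1.03, that of Foxa3 to Foxa2 by 1.20 and that of Foxa2 to Foxa1 by 0.28, and all overlapped (exact permutation test, p = 0.2, 0.2 and 0.4). Nr5a2 and Prox1 relative to Hnf4a differed by 0.51 and 0.91 and overlapped as well (exact permutation test, p = 0.5 and 0.3). After adjustment over the 11, the exact permutation p of the overlapping ratios was 0.367 to 0.5.

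Genes that lie over the factors on the genome had large changes of their own. In RefSeq 6 genes overlap 4 of the factors, 5 of which were tested, and they were looked up after the data had been seen. Gm38678, a lncRNA gene (Entrez gene 105242394, chromosome 9, 74865798 to 74876545) that lies wholly inside the span of Onecut1, had read counts of 1608, 7626 and 2840 in WT mice against 72, 65 and 49 in LKO mice. In CPM these were 21.6, 116.6 and 42.9 against 1.64, 1.86 and 1.06, a log2 fold change of -5.32 ± 0.64 (39.9-fold lower, edgeR adjusted p = 0.0006) that was -4.44 without WT mouse 2. WT mouse 2 was the highest WT mouse for Onecut1 as well, and Gm38678 held more reads than Onecut1 in all 3 WT mice. Gm33562, which overlaps the start of Onecut1 on the other strand, had at most 54 reads in any mouse and did not pass (edgeR adjusted p = 0.25). The span of Gm38678 holds 156 bases of an annotated Onecut1 exon (GENCODE vM21), and the use of strand in the counting is not given in the sources used here, so reads of overlapping genes cannot be told apart with certainty.

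Hnf4aos and Prox1os, genes that overlap Hnf4a and Prox1, rose after TMM while their partners did not pass the test. Hnf4aos (chromosome 2, 163493804 to 163541721), read from the strand opposite to Hnf4a, was at 1.48, 1.87 and 1.56 CPM in WT mice against 8.00, 7.25 and 1.51 CPM in LKO mice. It was thus high in LKO mice 1 and 2, where Hnf4a was lowest at 162 and 224 CPM, and at the WT level in LKO mouse 3, where Hnf4a was highest at 353 CPM. Its log2 fold change was 1.77 ± 0.53 (edgeR adjusted p = 0.028). That call ended without any 1 of WT mice 1, 2 and 3 or LKO mice 1 and 2 (edgeR adjusted p = 0.072 to 0.10) and after correction for gene length (0.075), and the value was -0.01 on log2(TPM + 1). Prox1os (chromosome 1, 190170296 to 190217279), named as an opposite strand gene but without a strand in the tables used here, was at 0.537, 1.07 and 1.92 CPM in WT mice against 5.11, 4.96 and 3.37 CPM in LKO mice, with a log2 fold change of 1.93 ± 0.44 (edgeR adjusted p = 0.0087). On total counts it was 1.08 and not called (edgeR adjusted p = 0.059), and on log2(TPM + 1) it was 0.38 and not called (limma adjusted p = 0.31). Ttc6, a protein-coding gene that shares 1326 bases with Foxa1 on the other strand, rose from a mean of 1.43 to 3.64 CPM (log2 fold change 1.34 ± 0.26, edgeR adjusted p = 0.0043) while Foxa1 fell, and was at -0.09 on log2(TPM + 1).

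**Figure D5:**
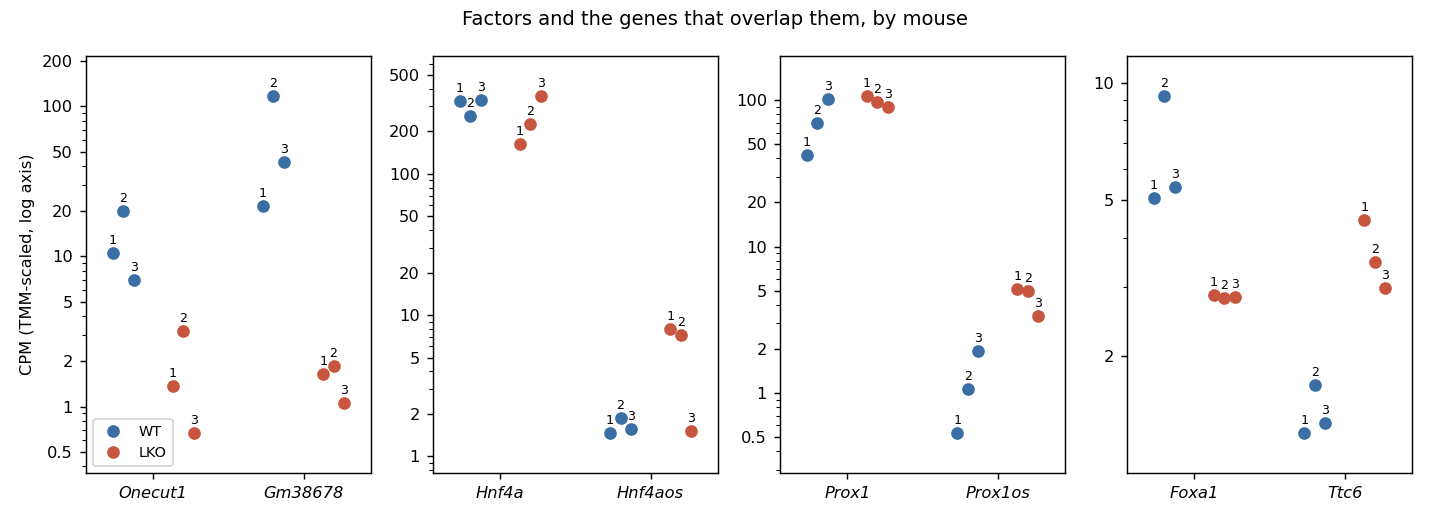
CPM per mouse (points, numbered by mouse, log axes that differ between panels) of 4 factors and a gene that overlaps each, WT in blue and LKO in red. Gm38678 drops with Onecut1, and Hnf4aos is near 1.5 CPM in WT mice and in LKO mouse 3 but above 7 CPM in LKO mice 1 and 2.

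Mice within a genotype differed by member. WT mouse 2 was the highest WT mouse for Foxa1, Foxa2 and Onecut1 and WT mouse 3 for the other 6 factors. Among LKO mice, mouse 3 was highest for Hnf4a, Foxa3, Cebpb and Nr5a2, mouse 1 for Foxa1, Foxa2, Cebpa and Prox1 and mouse 2 for Onecut1. Ppargc1a, a coactivator of HNF4A that is induced by fasting, was at 18.9, 18.0 and 109.8 CPM in LKO mice 1, 2 and 3 and at 8.62, 9.40 and 6.79 CPM in WT mice. Igfbp1, a FOXA target that insulin holds down, was at 127, 267 and 1924 CPM in LKO mice and 37.7, 1.68 and 14.2 CPM in WT mice. LKO mouse 3 stood apart for both, and their log2 fold changes of 2.56 ± 0.67 and 5.44 ± 1.36 (edgeR adjusted p = 0.017 and 0.014) were 1.15 and 3.46 without it, and that of Igfbp1 was 6.60 without WT mouse 1. The call of Ppargc1a ended without any 1 WT mouse (edgeR adjusted p = 0.052 to 0.062), and that of Igfbp1 without WT mouse 3 (0.055).

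Of 32 other liver transcription factors, all tested, 5 were called higher and 6 lower, with a median log2 fold change of -0.05 beside -0.04 over all genes. These counts lay near the shares of all genes called higher and lower (19.6% and 20.5%). Higher were Cebpd, Atf5 (1.85 ± 0.23, edgeR adjusted p = 0.00063), the bile acid receptor Nr1h4 (1.16 ± 0.25, adjusted p = 0.0077), the xenobiotic receptor Nr1i3 (1.08 ± 0.31, adjusted p = 0.024) and Nfia, which is named for completeness after its value was seen. Nr1h4 and Nr1i3 turned negative on log2(TPM + 1), at -0.44 and -0.52, and the call of Nr1i3 ended without any 1 of WT mice 1 and 2 and LKO mice 1 and 2 (edgeR adjusted p = 0.073 to 0.085). Srebf1, which drives fatty acid synthesis and is high after feeding, fell furthest, from 98.9, 69.9 and 186.5 CPM in WT mice to 11.5, 10.9 and 8.89 CPM in LKO mice (-3.50 ± 0.36, edgeR adjusted p = 0.00037). Mlxipl, the carbohydrate response factor (-1.40 ± 0.16, adjusted p = 0.0005), Ppara, the receptor for fatty acids in fasting (-1.12 ± 0.24, adjusted p = 0.0069), and Zbtb20 (-0.98 ± 0.21, adjusted p = 0.0075) were also lower. Nr0b2, the repressor that holds NR5A2 in check, did not pass (-0.58 ± 0.25, edgeR adjusted p = 0.095). On total counts, where the median of all genes was -0.90, Nr0b2 was called lower (-1.43, edgeR adjusted p = 0.0020).

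Among 14 coregulators that these factors recruit, 2 were called higher and 4 lower, with a median log2 fold change of -0.36, where 19.6% of all genes were called higher and 20.5% lower. With 14 genes these counts are not read as a result about coregulators. Beside Ppargc1a, the deacetylase Sirt1 was higher (0.74 ± 0.22, edgeR adjusted p = 0.027), a direction that flipped on total counts (-0.12). Smarca4, the motor of the SWI/SNF remodelling complex, was at 27.6, 26.2 and 26.1 CPM in WT mice against 15.9, 12.9 and 13.3 CPM in LKO mice (-0.92 ± 0.14, edgeR adjusted p = 0.0016). The corepressor Ncor1 (-0.67 ± 0.15, adjusted p = 0.0075), its partner Hdac3 (-0.72 ± 0.23, adjusted p = 0.035) and the coactivator Ncoa3 (-0.71 ± 0.19, adjusted p = 0.020) were lower too. Leaving out single mice ended the calls of Sirt1, Hdac3 and Ncoa3 (edgeR adjusted p up to 0.10) but not those of Smarca4 and Ncor1.

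Genes known as targets of the factors did not follow a single direction. Of 34 such genes on 4 lists, 12 were called higher, 2 lower and 20 neither, and their median log2 fold change was 0.73 beside -0.04 over all genes, of which 19.6% were called higher and 20.5% lower. On log2(TPM + 1) the targets called higher and lower were 3 and 18, where 71.5% of all genes were called lower. Among 13 HNF4A targets 5 were higher and 1 lower. The apolipoprotein gene Apoa4 was at 98.3, 48.0 and 82.8 CPM in WT mice against 1399, 2505 and 1391 CPM in LKO mice (4.53 ± 0.39, edgeR adjusted p = 0.00024). The coagulation factor genes F9 (1.84 ± 0.21, adjusted p = 0.00049) and F13b (1.40 ± 0.18, adjusted p = 0.00069) and the apolipoprotein gene Apoa2 (1.01 ± 0.22, adjusted p = 0.0080) were higher as well. F13b and Apoa2 were negative on log2(TPM + 1), at -0.15 and -0.53, and F9 was at 0.26 and not called (limma adjusted p = 0.23). The call of Apoa2 also ended on total counts (0.14, edgeR adjusted p = 0.54) and after correction for gene length (0.32, edgeR adjusted p = 0.26). Mttp, which loads lipid onto apolipoprotein B, was lower (-0.67 ± 0.17, edgeR adjusted p = 0.014), a call that ended without WT mouse 1 or WT mouse 3 (0.056 and 0.055).

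Among 6 FOXA targets 2 were higher and 1 lower, where 19.6% of all genes were called higher and 20.5% lower. With 6 genes these counts are not read as a result about FOXA targets. Alb, the albumin gene, rose from 23810, 19640 and 19780 CPM in WT mice to 83840, 60630 and 63690 CPM in LKO mice (1.72 ± 0.38, edgeR adjusted p = 0.0079), a call that ended on log2(TPM + 1) (0.16, limma adjusted p = 0.69). Ttr, which encodes the thyroxine carrier transthyretin and is a textbook FOXA target, fell from 2102, 1999 and 2202 CPM to 1132, 749 and 593 CPM (-1.35 ± 0.27, edgeR adjusted p = 0.0050). Of 12 C/EBP targets 3 were higher and 0 lower in edgeR's test. At an unadjusted p under 0.05, and with DESeq2, 0 were lower too, while limma on log2(TPM + 1) called 4 lower, beside 71.5% of all genes. The higher genes were Cps1, which starts the urea cycle (1.71 ± 0.28, edgeR adjusted p = 0.0021), and the acute phase genes Orm1 (1.90 ± 0.33, adjusted p = 0.0027) and Crp (1.95 ± 0.27, adjusted p = 0.00096). Crp was at 84.1, 138 and 111 CPM in WT mice against 304, 453 and 533 CPM in LKO mice. On log2(TPM + 1) none of these 3 calls held, with 0.15 for Cps1, 0.24 for Orm1 and 0.39 for Crp (limma adjusted p = 0.58, 0.36 and 0.25).

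Among 6 LRH-1 targets 3 were higher and 3 did not pass, where 19.6% of all genes were called higher and 20.5% lower. With 6 genes these counts are not read as a result about LRH-1 targets. Cyp7a1, the rate-limiting enzyme of bile acid synthesis, was at 156, 149 and 194 CPM in WT mice against 840, 734 and 600 CPM in LKO mice (2.12 ± 0.20, edgeR adjusted p = 0.00031). Cyp8b1, which makes cholic acid and is also a target of HNF4A, was higher at 0.91 ± 0.30 (edgeR adjusted p = 0.038), and Scarb1, the HDL receptor, at 0.74 ± 0.24 (adjusted p = 0.036). Each of these 2 calls ended without single mice (edgeR adjusted p up to 0.12 for Scarb1 and 0.097 for Cyp8b1), and both genes were negative on log2(TPM + 1).

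Genes of the immature liver were at low levels in both genotypes. Of 14 such genes 9 were tested, of which 3 were called higher and 0 lower by edgeR, where 19.6% and 20.5% of all genes were. With 9 genes these counts are not read as a result about immature genes. At an unadjusted p under 0.05 edgeR and DESeq2 each had 1 lower gene. Limma on log2(TPM + 1) called 5 lower, where 71.5% of all genes were called lower. Gpc3, a proteoglycan gene of the fetal liver, was at 0.255, 0.122 and 0.242 CPM in WT mice against 0.909, 0.602 and 1.49 CPM in LKO mice (2.27 ± 0.48, edgeR adjusted p = 0.0064). Igf2 (1.54 ± 0.43, edgeR adjusted p = 0.021) and Cd24a (0.74 ± 0.25, adjusted p = 0.042) were the others. Cd24a did not exceed 3.68 CPM in any mouse. Igf2 did not exceed 0.295 CPM, on 5 to 13 reads per mouse, and its call also ended with DESeq2 (adjusted p = 0.074) and without a filter on low counts (edgeR adjusted p = 0.10). Leaving out single mice ended both calls (edgeR adjusted p up to 0.12), and Cd24a was negative on total counts (-0.11). Afp, the classic fetal gene, stayed under 1 CPM in all 6 mice (log2 fold change 0.02 ± 0.44, edgeR adjusted p = 0.98).

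Markers of other liver cells moved with genotype beside these values. Cholangiocyte markers, relevant because Foxa1, Foxa2 and Onecut1 are also expressed in bile duct cells, summed to 34.2 to 51.4 CPM in WT against 14.6 to 30.7 CPM in LKO mice. Most of that sum was Spp1 (48.1, 40.2 and 30.5 CPM in WT mice 1, 2 and 3), and 3 of the 8 markers (Krt7, Cftr and Muc1) had too few reads to be tested, while Krt19 and Epcam stayed under 1 CPM in every mouse. Of the 5 tested, Spp1 was lower (-1.09 ± 0.30, edgeR adjusted p = 0.019) and 0 were higher by edgeR, DESeq2 or limma on log2(TPM + 1). At an unadjusted p under 0.05, Krt19 was higher by edgeR (adjusted p = 0.092) and 0 were by DESeq2. Endothelial markers summed to 241 to 286 CPM in WT against 423 to 444 CPM in LKO mice, Kupffer cell markers to 222 to 333 and 351 to 608 CPM, and stellate cell markers to 310 to 368 and 680 to 992 CPM. Members of these lists did not all move alike. Of the 7 endothelial markers 5 were called higher, where 19.6% of all genes were called higher and 20.5% lower. Of the 8 Kupffer cell markers 4 were higher, Clec4f and Vsig4 among them, and Cd68 was lower (-1.29 ± 0.21, edgeR adjusted p = 0.0021). Of the 8 stellate cell markers 3 were higher (Dcn, Rgs5 and Lrat), and the collagen gene Col3a1 was lower (-1.85 ± 0.26, edgeR adjusted p = 0.001). Lymphocyte markers summed to 45.4 to 67.4 CPM in WT against 30.5 to 44.2 CPM in LKO mice. Most of that sum was Ptprc (45.55, 60.95 and 41.14 CPM in WT mice 1, 2 and 3), which did not pass (edgeR adjusted p = 0.11). Of the 7 lymphocyte markers 0 were called higher and 2 lower (Cd8a and Nkg7). None of the ranges of these marker sums overlapped between genotypes after TMM, and their part in the changes of the factors was not tested. The sums were not computed on total counts, where the median log2 fold change of all genes was -0.90. Whether the ranges stay apart there is therefore not shown.

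By likeness of pattern over the 6 mice, among the 6899 genes that averaged 10 CPM or more, the nearest genes to Hnf4a were Slc25a51, St3gal1 and Ptprj, at Euclidean distances of 0.24, 0.28 and 0.31 on the centred log2(CPM + 1) scale. The nearest to Foxa3 were Cdc40, Qser1 and Garem1 (0.21, 0.23 and 0.25) and to Foxa1 Gm41107, Cep85 and Atxn1 (0.26, 0.26 and 0.30). Cebpa lay nearest to Bivm, Gm46430 and Ftcd (0.29, 0.30 and 0.32), Nr5a2 to Grtp1, Igip and Pou2f1 (0.34, 0.34 and 0.35), Foxa2 to Gm2788, Mical3 and Gm38983 (0.41, 0.41 and 0.44) and Prox1 to 0610005C13Rik, Fgfr2 and Azin1 (0.42, 0.47 and 0.49). Cebpb had its nearest genes farther off, Slc25a47, Mup-ps16 and Ass1 (0.53, 0.64 and 0.67). Onecut1 had its nearest genes farthest off of the 9, with H2-Aa, Cd207 and Steap4 at 0.62, 0.71 and 0.87. The values were centred but not scaled, so a distance also grows with the size of a gene's change, which was largest for Onecut1.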

How the data were processed

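Liver RNA of 3 WT and 3 LKO mice, grouped by genotype in the labels, was sequenced by the authors. Per the submitters' processing notes the tools were bcl2fastq 2.20.0, FastQC 0.11.7, HISAT2 2.1.0, Bowtie2 2.3.4.1 and StringTie 2.1.3b, and the genome was mm10. The authors deposited unnormalized read counts with FPKM and TPM of every gene in each mouse. The methods describe libraries from total RNA after removal of rRNA, the labels a kit that selects mRNA.

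Genes at 0 in more than 1 of the 6 mice were dropped. After TMM, genotypes were compared by edgeR 4.0.16 (R 4.3.3) with its quasi-likelihood test, two-sided, with Benjamini-Hochberg adjustment over 18636 genes and an adjusted p under 0.05. Alternatives used exactTest, DESeq2 1.42.0, limma 3.58.1 on log2(TPM + 1) and log2(TPM + 0.1), other scalings and filters, a length correction from the ratio of deposited count to deposited FPKM, and leaving out each mouse. Errors are the SD over 3 mice or the model's SE. The tests were tested on simulated data.

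Named genes were all members, Pak4, their relatives and overlapping genes, up to 4 genes called in each direction of each list (marker lists are given by sums, and their genes were named after their values were seen), a few fixed genes, and the 3 nearest genes by pattern. The members and lists were chosen with earlier results of these data known. Some list members and a motif are not reported here and were left out of the counts. Promoters and coordinates came from RefSeq (GRCm38.p6, the assembly that mm10 represents).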

Additional observations from a re-analysis of the deposited data

How the results depend on the processing

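Onecut1 and Foxa1 kept their direction and call under all 20 alternatives, with log2 fold changes of -4.29 to -2.39 and -2.55 to -0.91. Foxa2 was no longer called with upper-quartile scaling (-0.86), and Cebpa was no longer called without a filter on low counts (0.59). The other members changed with the scaling, and some with single mice. On total counts the values were -1.16 for Hnf4a (called), -0.44 for Foxa3, -0.23 for Cebpa, 0.62 for Cebpb (not called), -0.73 for Nr5a2 and -0.40 for Prox1. On log2(TPM + 1) and log2(TPM + 0.1), which change the test and divide by length as well, they were -1.88 and -1.91 for Hnf4a, -1.15 and -1.22 for Foxa3, -0.92 and -0.95 for Cebpa, 0.07 and 0.08 for Cebpb, -1.28 and -1.41 for Nr5a2 and -0.91 and -0.98 for Prox1. The members called higher and lower numbered 0 and 5 on total counts and 0 and 8 on both TPM scales. Members called higher numbered 1 without a filter, 0 at an adjusted p under 0.01 and 1 with an added 2-fold minimum.

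Over all genes, 3661 were called higher and 3815 lower. These became 1167 and 9575 on total counts, 453 and 13322 on log2(TPM + 1), 467 and 13535 on log2(TPM + 0.1) and 2262 and 2112 at an adjusted p under 0.01, and 2185 were lower with a 2-fold minimum. Of the 32 liver transcription factors, 2 were higher and 19 lower on total counts, 1 and 26 on log2(TPM + 1), and 1 and 27 on log2(TPM + 0.1), with 3 higher at an adjusted p under 0.01 and 3 lower with a 2-fold minimum. Of the 34 targets, 11 were lower on total counts, 3 were higher on both TPM scales beside 18 and 19 lower, and 1 was lower at an adjusted p under 0.01 or with a 2-fold minimum.

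Single genes that turned negative on total counts were Afp (-0.83), Cd24a (-0.11), Scarb1 (-0.10) and Sirt1 (-0.12). On log2(TPM + 1) and log2(TPM + 0.1) those were Afp (-0.38 and -1.12), Apoa2 (-0.53 and -0.53), Cd24a (-0.47 and -0.77), Cyp8b1 (-0.56 and -0.57), F13b (-0.15 and -0.16), Hnf4aos (-0.01 and -0.08), Nr1h4 (-0.44 and -0.44), Nr1i3 (-0.52 and -0.54), Scarb1 (-0.78 and -0.85), Sirt1 (-0.69 and -0.83) and Ttc6 (-0.09 and -0.23). Calls that ended on total counts without a change of sign were those of Apoa2 (0.14), Cyp8b1 (0.08), Hnf4aos (0.89), Igf2 (0.68), Nr1h4 (0.28), Nr1i3 (0.23), Ppargc1a (1.73), Prox1os (1.08) and Ttc6 (0.48). On log2(TPM + 1) they were those of Alb, Atf5, Cps1, Crp, F9, Gpc3, Igf2, Orm1, Ppargc1a and Prox1os, at 0.46 or less. The cause of these differences was not tested beyond the shift of the median of all genes.

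Leaving out each mouse in turn gave ranges of -0.66 to -0.08 for Hnf4a, -1.18 to -0.64 for Foxa2, -0.04 to 0.64 for Foxa3, 0.40 to 0.75 for Cebpa, 1.09 to 2.00 for Cebpb, -0.09 to 0.29 for Nr5a2, 0.18 to 0.80 for Prox1 and -0.31 to 0.41 for Afp. The members called higher numbered 0 to 3 and the liver transcription factors called higher 3 to 5, and the targets called lower 1 to 3.

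Same-numbered mice are different animals, and the correlations of their deviations from the group means were 0.051, -0.025 and -0.076, so the numbers were not taken to pair them. With the replicate number as a block, 3129 genes were higher and 3302 lower, 1 member was called higher and 2 lower, and Foxa2 (-0.87) and Cebpa (0.59) were no longer called. With the block and the length correction together Foxa2 was -0.81 and not called. On TPM the 11 ratios within libraries moved by less than the spread between mice. Under the block their mean differences could not change, because each block holds 1 mouse of each genotype. Leaving out 1 mouse cannot move a group mean by as much as the SD of that group. The block and the left-out mice therefore do not test how stable the ratios are.

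With 3 mice per genotype an exact permutation test cannot go below p = 0.1, and a fall of RNA per liver cannot be told from a rise of other RNA in it.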
